A study of Mus musculus with 24 samples.

Results

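The genes described here are 9 that build the photoreceptor outer segment or the matrix around it: Prph2, Rom1, Prom1, Cdhr1, Abca4, Tulp1, Fscn2, Impg1 and Impg2. They were chosen by symbol, on chromosomes 1 to 19 and X, from 45594 genes counted in mouse retina, and all 9 were found. Poly(A) RNA of whole retinas of strain C57/Bl6N was sequenced at 12 ages, 4 embryonic (E11, E12, E14, E16) and 8 postnatal (P0, P2, P4, P6, P10, P14, P21, P28), with 2 libraries per age. Libraries were made from 100 ng of total RNA at E11 and E12 and from 1000 ng at every other age. In comparisons of E11 or E12 with later ages, age and RNA input therefore cannot be told apart. Library totals ran from 24567532 to 35898879 estimated counts. The labels do not say whether the libraries of an age come from separate animals, so p-values measure the spread between these libraries only. Levels are CPM, counts divided by library size and scaled by the trimmed mean of M values (TMM). The sign ± gives the SD over 2 libraries, or over 4 where 2 ages are pooled for a ratio.

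As background, a rod or cone outer segment is a modified cilium filled with stacked membrane discs that hold the visual pigment. New discs form at the base, the tetraspanins peripherin-2 and ROM1 shape the disc rim, and the finished segment is embedded in an interphotoreceptor matrix of proteoglycans. In the mouse most outer segment growth takes place after birth, and loss of any of several of these genes causes retinal degeneration in people or mice.

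Together, the 9 genes moved from a range of 0.0336 to 150 CPM at E11 to a range of 57.6 to 3928 CPM at P28. All 9 differed between stages (quasi-likelihood F test in edgeR, Benjamini-Hochberg adjusted p from 2.25e-18 for Rom1 to 1.12e-11 for Impg2), against 77.3% of the 21858 genes tested. In the authors' deposited table all 9 are listed, with adjusted p from 1.02e-16 (Rom1) to 1.02e-10 (Fscn2). They did not rise together: the stage with the highest mean was P10 for Prom1, Cdhr1 and Impg2, P14 for Impg1, and P21 for Prph2, Rom1, Abca4, Tulp1 and Fscn2. Because whole retinas were sequenced, more photoreceptors and more RNA per photoreceptor cannot be told apart.

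**Figure D1:**
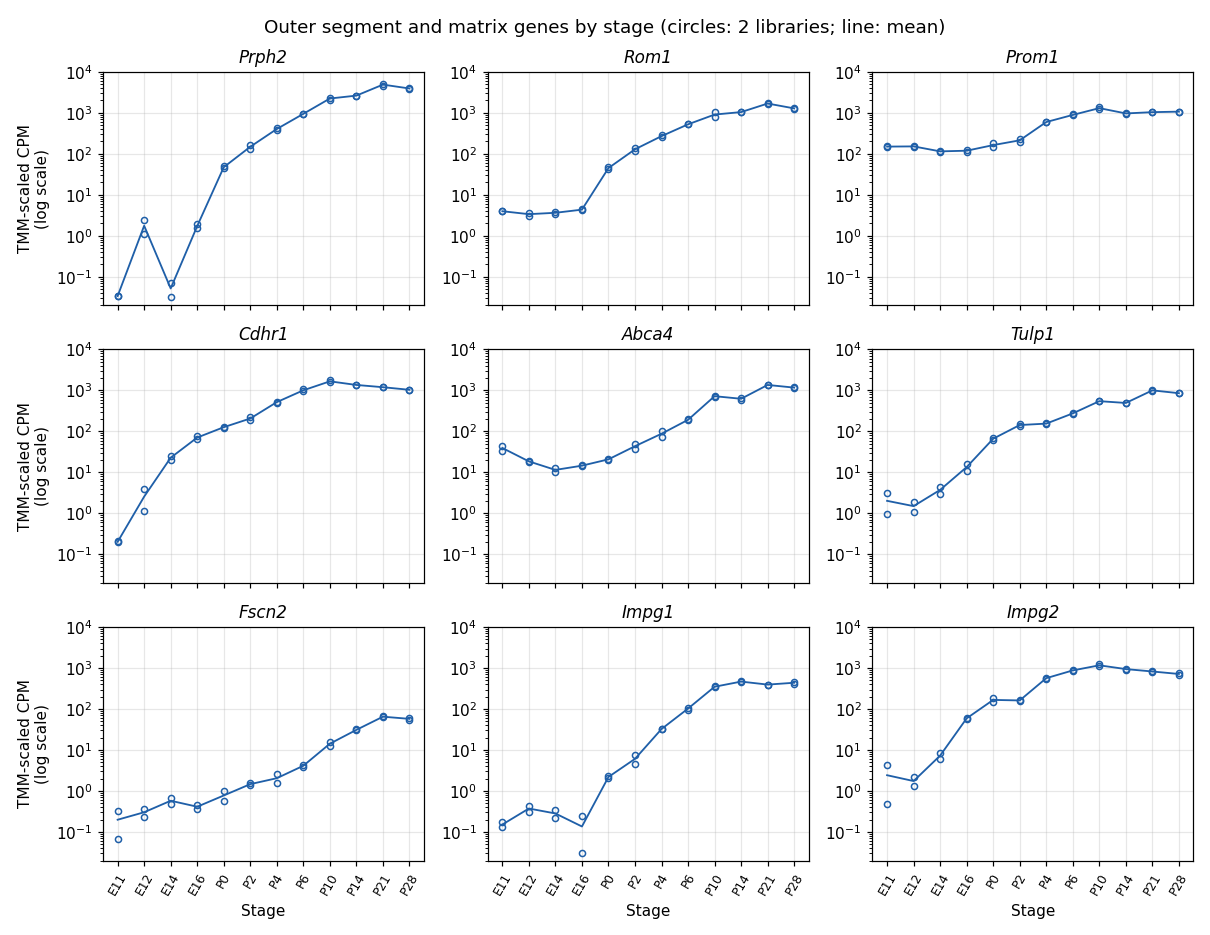
Level of each gene (TMM-scaled CPM, log axis) at the 12 stages, with a circle for each of the 2 libraries and a line through the stage means. Prom1 and Abca4 start high at E11, Prph2 has a single raised point at E12, and the others climb from low embryonic levels to a postnatal plateau.

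Marker genes place these values in context. The summed level of 8 photoreceptor markers went from 17.5 and 22.7 CPM at E11 to 52000 and 57400 at P28, and that of 8 progenitor markers from 3760 and 3120 to 245 and 210. Lens and red cell markers varied most in the early embryo. The 6 lens markers summed to 2910 and 7.96 CPM at E11, 203 and 2790 at E12 and 52.5 and 1920 at E14, against at most 82.5 in any later library. The 6 red cell markers fell from 3090 and 7540 CPM at E11 to under 3 at P0 (2.67 and 1.36). The part of these differences in the results for the early stages was not tested, apart from leaving out single libraries and both E12 libraries.

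Each comparison between stages called a gene at an adjusted p under 0.05 if it also changed by 2-fold or more. From E11 to P0, 7 of the 9 genes rose and none fell, with a median log2 change of 3.83 against 0.04 for all genes; 18.9% of all genes were called higher. Prom1 (log2 change 0.12, SE 0.11, adjusted p 0.351) and Abca4 (log2 change -0.92, SE 0.16, adjusted p 9.82e-05, under 2-fold) were not called. From P0 to P6 all 9 rose, from 2.05 (Tulp1) to 5.54 (Impg1) on the log2 scale, where 8.83% of all genes were called higher. From P6 to P14 the number was 4 (Prph2, Abca4, Fscn2 and Impg1), where 10.13% were called higher. From P14 to P28 none was called (edgeR), where 4.05% of all genes were called higher and 4.81% lower, although 4 had an adjusted p and 5 an unadjusted p under 0.05, with changes of less than 2-fold. DESeq2 also called 0 there. Scaling by library size alone moved the median of all genes from E11 to P0 from 0.04 to 0.24, and the same 7 members were called.

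Rising members per step between neighbouring stages numbered 2 (E11 to E12, where 4.08% of all genes were called higher), 3 (E12 to E14, 7.52%), 4 (E14 to E16, 5.47%), 5 (E16 to P0, 4.75%) and 5 (P0 to P2, 3.02%). The count was highest from P2 to P4, with 7 of 9 against 3.97% of all genes. It was then 4 (P4 to P6, 1.08%), 4 (P6 to P10, 4.59%), 1 (P10 to P14, 3.45%), 3 (P14 to P21, 4.31%) and 0 (P21 to P28, 0.339%), a step in which DESeq2 also called 0 and 1 gene had an unadjusted p under 0.05 in edgeR. Only 2 falls were called in the 11 steps, Abca4 from E11 to E12 (3.92% of all genes lower) and Prph2 from E12 to E14 (3.38%). In the other 9 steps, in order, 1.67%, 3.03%, 0.961%, 7.28%, 1.54%, 3.28%, 1.08%, 5.07% and 0.549% of all genes were called lower. Some of these calls were lost without 1 library. Tulp1 from E12 to E14 had adjusted p 0.14 without E12 replicate 1 and 0.135 without E14 replicate 2. From P0 to P2 Abca4 (1.07) went to 0.84 without P2 replicate 2. From P2 to P4 Rom1 (1.07) fell to 0.93 without P2 replicate 1 and 0.99 without P4 replicate 2, and Abca4 (1.01) to 0.82 and 0.77. From P4 to P6 Abca4 (1.13) went to 0.92 without P4 replicate 1. Fscn2 in that step (1.00, adjusted p 0.0289) had adjusted p 0.332 without that library and 0.0905 and 0.165 without P6 replicate 1 and 2.

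**Figure D2:**
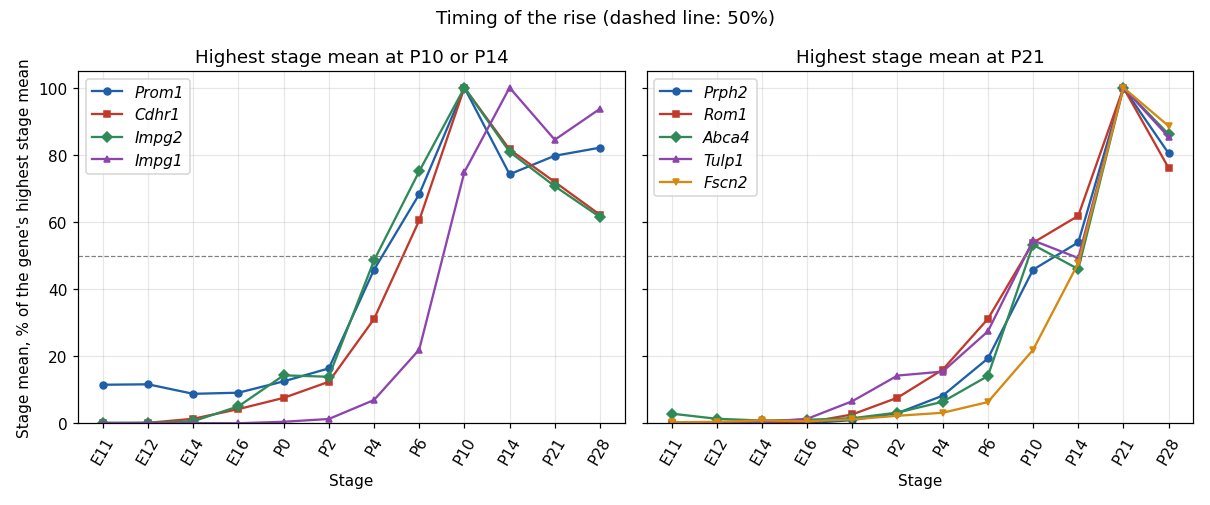
Stage means as a percentage of each gene's highest stage mean, for the genes whose highest mean was at P10 or P14 (left) and at P21 (right); the dashed line marks 50%. Prom1, Cdhr1 and Impg2 pass it in both libraries by P6, while Fscn2 stays under it until P21.

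The order in which genes first reached 50% of their highest mean in both libraries was Prom1, Cdhr1 and Impg2 at P6, Abca4, Tulp1 and Impg1 at P10, Prph2 and Rom1 at P14, and Fscn2 at P21. The means of Abca4 and Tulp1 were back under 50% at P14 (45.96% and 49.25%), and both genes stayed over it only from P21. At P10 the means of Rom1, Abca4 and Tulp1 were alike (53.8%, 53.2% and 54.5%), and Rom1 missed the mark there in replicate 1 (795 CPM). At P6 Impg2 stood at 75.1% of its highest mean, Prom1 at 68.2% and Cdhr1 at 60.4%. Prph2 (19.3%) and Fscn2 (6.34%) were far behind at that age. These percentages describe the stage means and were not tested.

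Prph2 (ENSMUSG00000023978, chr17:46910459-46924933, plus strand, GRCm38.p5) encodes peripherin-2, the tetraspanin of the disc rim. It was almost absent at E11, with 1 count in each library. Both P0 libraries had already risen, to 45.0 and 49.0 CPM, 1400-fold above E11 by counts, with an exact 95% counting interval of 388 to 11600 since E11 holds 2 counts in all. The P6 libraries were at 949 and 940 CPM, a log2 change of 4.33 from P0 (SE 0.19, adjusted p 1.42e-11).

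After P6 Prph2 went on rising. Its libraries were at 2108 and 2363 CPM at P10, 2631 and 2634 at P14, 5126 and 4642 at P21 and 3812 and 4044 at P28. The rise from P6 to P14 was 1.48 on the log2 scale (SE 0.16, adjusted p 2.24e-06), and no library of an earlier age overlapped those of P14. From P14 to P28 the change was 0.58 (SE 0.16, adjusted p 0.0144), less than 2-fold. Prph2 had the highest P28 level per transcript length of the 9 genes, at 3377 ± 93.6 TPM. TPM are transcript counts divided by transcript length, scaled to the same total in every library and summed over a gene's transcripts, non-coding ones included.

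Rom1 (ENSMUSG00000071648, chr19:8927382-8929356, minus strand) encodes the tetraspanin that pairs with peripherin-2 in the rim. Unlike Prph2 it had a steady embryonic level, between 3.08 and 4.51 CPM in all 8 embryonic libraries. It rose between E16 and P0 to 46.7 and 42.9 CPM (log2 change 3.37, SE 0.13, adjusted p 6.43e-11) and by another 3.55 from P0 to P6, to 520 and 529 CPM. Later libraries were at 795 and 1020 CPM at P10, 1036 and 1049 at P14, 1732 and 1639 at P21 and 1230 and 1335 at P28. The change from P6 to P14 was 0.99 (SE 0.12, adjusted p 3.64e-06), just under 2-fold, and passed 2-fold with DESeq2, with relative log expression scaling, with a stricter filter, with summed transcripts, or without P6 replicate 2 or P14 replicate 1 (log2 change 1.00 to 1.06).

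Per length, Rom1 was the more abundant of the rim pair at P0 (60.7 ± 4.7 against 39.6 ± 1.6 TPM for Prph2) and P2 (166 ± 24 against 123 ± 21 TPM). At P4 they were close (331 ± 23 and 310 ± 23 TPM). Rom1 was slightly the higher within each P4 library (315 against 294 TPM and 347 against 326 TPM). With all transcripts counted, Prph2 was higher from P6 on, and at P28 Rom1 was at 1865 ± 72 TPM. At P6 they were at 751.5 and 664 TPM, and the retained-intron Prph2-002 (1384 bases) held 9.85% of the Prph2 counts. The age at which coding Prph2 alone passed Rom1 was not computed. The log2 ratio of Rom1 to Prph2 in CPM fell from -0.714 ± 0.157 in the 4 libraries of P4 and P6 to -1.57 ± 0.0558 in the 4 of P21 and P28. Here ± takes in the difference between the pooled ages, such as -0.579 at P4 and -0.849 at P6. The test below treats libraries of pooled ages as exchangeable. The groups did not overlap, and the 1.82-fold shift had a 2-sided exact permutation p of 0.0286, the smallest that 4 against 4 libraries can give (adjusted over the 3 ratios tested, 0.0429). With any 1 library left out the design cannot pass the threshold, and the shift lay between -0.91 and -0.82.

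**Figure D3:**
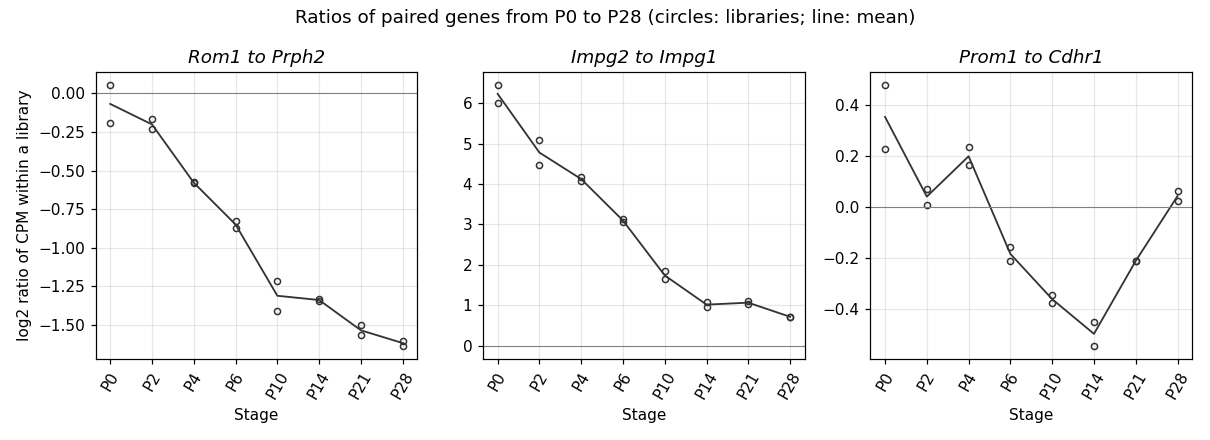
Log2 ratio of the CPM of paired genes within each library from P0 to P28, with circles for libraries and a line for the mean. Rom1 to Prph2 and Impg2 to Impg1 decline with age, while Prom1 to Cdhr1 dips to its lowest at P14 and returns to near 0 at P28.

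Prom1 (ENSMUSG00000029086, chr5:43993620-44102032, minus strand) encodes prominin-1, a membrane protein of the nascent disc edge that is also found on progenitor cells in many tissues. It was the one gene of the 9 that was abundant throughout, between 111 and 159 CPM in all 8 embryonic libraries. At P2 its libraries were at 193 and 234 CPM, and at P4 at 597 and 595 CPM. That step (log2 change 1.48, SE 0.11, adjusted p 1.19e-07) was the only one of the 11 in which Prom1 was called. It reached 1215 and 1389 CPM at P10 and lay between 946 and 1073 CPM in the 6 libraries from P14 to P28, all below both P10 libraries. The fall from P10 to P14 was 0.43 on the log2 scale (SE 0.11, adjusted p 0.00948), less than 2-fold.

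Although the total of Prom1 changed little before birth, the makeup of its transcripts did. Transcript names and counts below are those the authors deposited, the counts being kallisto estimates. The transcript models were matched by Ensembl transcript identifier to GENCODE vM21 (GRCm38), where all 19 have the same length. Prom1-007, a coding transcript, held 65.4% of the gene's counts in both libraries of E11, 23.7% and 25.9% at E16, 16.9% and 12.0% at P0 and 4.11% and 3.18% at P28. Prom1-203, another coding transcript, held 7.63% and 9.60% at E11, 37.0% and 38.2% at P0 and 49.96% and 49.8% at P28. Prom1-001 went from 0% in both E11 libraries to 21.6% and 25.0% at P28. The leading transcript was thus Prom1-007 up to E16 and Prom1-203 from P0 on.

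The 4 coding exons lettered here A to D are the internal exons that separate Prom1-203 from Prom1-007: A and B are in Prom1-203, C and D in Prom1-007. First and last exons were left out of this comparison. Exons A to D are printed because the shift between transcripts takes in a shift in these stretches. Each is written 5′ to 3′ as in the messenger RNA, with the exon in capitals and 15 bases of the neighbouring exons of the same transcript in lower case. Exon A lies at chr5:44058626-44058652 (27 bases), B at chr5:44012499-44012516 (18 bases), C at chr5:44001270-44001293 (24 bases) and D at chr5:44000777-44000845 (69 bases), all on the minus strand of GRCm38. All 4 lengths are multiples of 3.
Prom1 exon A: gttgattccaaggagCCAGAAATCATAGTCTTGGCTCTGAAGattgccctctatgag
Prom1 exon B: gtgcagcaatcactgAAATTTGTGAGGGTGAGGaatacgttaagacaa
Prom1 exon C: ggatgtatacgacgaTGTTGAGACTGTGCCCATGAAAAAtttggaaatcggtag
Prom1 exon D: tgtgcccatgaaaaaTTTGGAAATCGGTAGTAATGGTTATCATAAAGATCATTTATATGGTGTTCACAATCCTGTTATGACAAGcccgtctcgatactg

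Inclusion of an exon was taken as the length-corrected share, among transcripts that span its position, of those that hold it. At E11 exon A was in 17.2% and 17.8% of spanning transcripts per library, followed by 41.7% and 34.8% at E16, 53.6% and 58.4% at P0, 79.2% and 79.3% at P6 and 87.6% and 89.8% at P28. Exon B ran beside it, from 9.35% and 11.6% at E11 through 52.9% and 54.1% at P0 to 85.5% and 87.5% at P28. The exons at the other end went the opposite way. Exon C fell from 93.0% and 91.3% at E11 to 45.7% and 45.4% at P0 and 29.5% and 26% at P28. Exon D fell from 64.5% and 62.3% through 16.4% and 14.8% to 6.54% and 6.02%. For each of the 4 exons the libraries of E11, P0 and P28 did not overlap. These shares come from estimated transcript counts and not from junction reads, and the error of assigning reads to transcripts is not in them.

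**Figure D4:**
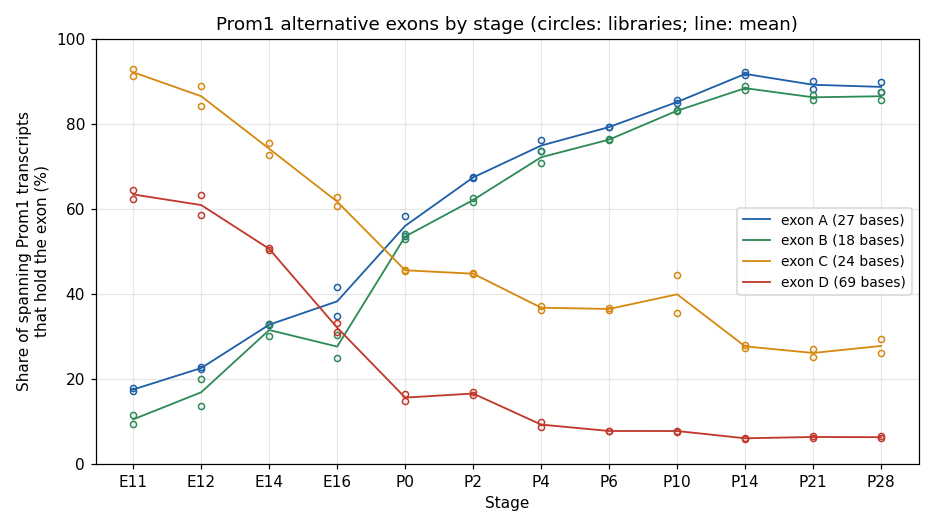
Percentage of spanning Prom1 transcripts that hold each of 4 alternative coding exons, by stage, with a circle for each library and a line for the mean. Exons A and B rise from under 20% at E11 to over 85% at P28, while exons C and D fall, with most of the change before P6.

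The change in transcript use was tested with edgeR's diffSpliceDGE over all transcripts, with Benjamini-Hochberg adjustment. From P6 to P28, 2 transcripts of the 9 genes were called, where 3.46% of all 56746 transcripts tested were called. By limma's diffSplice the number was 12, which also took in transcripts of Tulp1, Fscn2 and Abca4. Both of those called by edgeR belong to Prom1 and were minor: Prom1-202 (relative log2 change -9.36, adjusted p 6.1e-09) and Prom1-201 (-5.18, adjusted p 0.000153), which held 4.75% and 4.09%, and 1.49% and 2.42%, of the counts in the P6 libraries. The comparison of E11 with P0 was chosen after these shares were seen. There 5 transcripts were called against 2.79% of all: Prom1-001 (7.68, adjusted p 4.6e-12), Prom1-202 (8.56, adjusted p 2.88e-07), Prom1-203 (1.47, adjusted p 0.00169), Prom1-007 (-1.53, adjusted p 0.0103) and Tulp1-001 (4.97, adjusted p 0.000162). The call of Prom1-007 was lost without P0 replicate 1 (adjusted p 0.118) or 2 (0.261), that of Prom1-203 without E11 replicate 1 (0.0517), and that of Tulp1-001 without E11 replicate 2 (0.0674) or with limma's diffSplice (0.0595). Beside this, the progenitor marker sum was 3760 and 3120 CPM at E11, 6160 and 6160 at P0 and 834 and 922 at P6. The sum weighs abundant genes most, and its rise from E11 to P0 was not shared by all its markers. Hes1, Sox2, Fgf15, Nes and Top2a had lower stage means at P0 than at E11, and the rest had higher ones. The part of a changing cell makeup in the Prom1 transcripts was not tested.

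Cdhr1 (ENSMUSG00000021803, chr14:37077850-37098311, minus strand) encodes a photoreceptor cadherin at the junction of new discs and the inner segment. It was called higher in every embryonic step. Its libraries were at 0.197 and 0.206 CPM at E11, 3.998 and 1.12 at E12, 25.5 and 20.1 at E14, 76.1 and 65.5 at E16 and 125 and 129 at P0. The rise from E11 to E14, fitted without the E12 libraries, was 6.80 on the log2 scale (SE 0.20, adjusted p 7.17e-13). The rise from E11 to E12 (3.63) was 2.45 without E12 replicate 1 and 4.28 without E12 replicate 2.

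After birth Cdhr1 rose 2.99 from P0 to P6 (SE 0.25, adjusted p 5.93e-08), to 1060 and 959 CPM, and reached 1577 and 1763 CPM at P10. Its 6 later libraries were all lower and in order of age: 1378 and 1347 CPM at P14, 1213 and 1188 at P21 and 1021 and 1054 at P28. No single step of that decline passed the test, with log2 changes of -0.29 (adjusted p 0.435), -0.18 (0.605) and -0.21 (0.691). The log2 ratio of Prom1 to Cdhr1, a pair that meets at the disc base, was 0.00833 ± 0.224 at P4 and P6 and -0.0833 ± 0.147 at P21 and P28, and the groups overlapped (exact permutation p 0.543). Across those stages it moved below both groups, to -0.54 and -0.45 at P14.

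Abca4 (ENSMUSG00000028125, chr3:122044443-122180123, plus strand) encodes the disc rim flippase that clears retinal derivatives from the disc lumen. It was the only one of the 9 called lower when E14 was compared with E11 directly. Its libraries were at 33.9 and 44.9 CPM at E11, 17.8 and 19.3 at E12, 12.7 and 10.3 at E14, 14.11 and 15.03 at E16 and 20.6 and 21.06 at P0. No E11 library overlapped those of the other embryonic stages. Fitted without E12, the change from E11 to E14 was -1.78 (SE 0.17, adjusted p 5.61e-07). The step from E11 to E12 (-1.09, adjusted p 0.000267) was under 2-fold without E11 replicate 2 (-0.88) and with library size alone (-0.99), and the window from E11 to P0 passed 2-fold without E11 replicate 1 (-1.11) and with summed transcripts (-1.15).

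The pigment epithelium, which lies against the retina and can be carried along in dissection, is also known to contain some Abca4 transcript. The 10 pigment epithelium markers summed to 230 and 179 CPM at E11, 93.2 and 150 at E12, 30.9 and 43.7 at E14 and 24.7 or less at P0. At E11 most of that came from Pmel (117 and 68.7 CPM), Mitf (47.3 and 65.4) and Dct (36.5 and 30.7), while Rpe65 and Rgr were at 0 in both libraries. The same sum was 191 and 245 CPM at P10 and 33.0 and 59.5 at P21, where Abca4 was higher than at P10. Its part in the embryonic Abca4 level was not tested. The full-length coding transcript Abca4-001 held 46.2% and 51.9% of the gene's counts at E11 and 14.9% and 23.8% at E16, where the retained-intron transcript Abca4-005 held 42.5% and 33.5%. Abca4-001 held 91.8% and 93.5% at P14, its highest stage, and 79.6% and 81.0% at P28. Much of the embryonic count thus lay in transcripts other than the full-length one.

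After birth Abca4 was called higher in each of the 4 steps from P0 to P10. It was at 37.3 and 49.8 CPM at P2, 74.2 and 101 at P4, 198 and 187 at P6 and 701 and 749 at P10. The step from P6 to P10 was its largest (log2 change 1.92, SE 0.16, adjusted p 1.82e-07), but it spans 4 days, and the 3 steps before it (1.07, 1.01 and 1.13) span 2 days each. It was at 663 and 589 CPM at P14 and rose again to 1374 and 1352 CPM at P21 (1.12, SE 0.15, adjusted p 4.58e-05; 0.71 with summed transcripts). At P28 it was at 1155 and 1192 CPM.

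The sequences just upstream of the starts of 3 of these genes are printed because the genes rose in the same weeks and differ in a short motif. They are the 100 bases before the start in the RefSeq table for GRCm38.p6, 5′ to 3′ on the gene's strand. Capitals mark TAATC or its other strand GATTA, the core recognised by OTX-type homeodomain proteins such as CRX. The Prph2 stretch is chr17:46910378-46910477, that of Abca4 chr3:122044360-122044459 and that of Rom1 chr19:8929357-8929456.
Prph2: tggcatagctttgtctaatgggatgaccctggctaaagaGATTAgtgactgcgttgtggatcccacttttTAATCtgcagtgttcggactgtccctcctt
Abca4: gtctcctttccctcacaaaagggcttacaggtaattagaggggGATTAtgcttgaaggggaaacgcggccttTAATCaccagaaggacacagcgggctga
Rom1: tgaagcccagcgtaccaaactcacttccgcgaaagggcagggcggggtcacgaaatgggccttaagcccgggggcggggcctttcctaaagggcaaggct

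In these 100 bases 5 of the 9 genes held TAATC on either strand (Abca4, Impg1, Impg2, Prom1 and Prph2), against 7.59% of 32851 promoters of the same length. All 9 were in the table, Prom1 with 2 starts, of which 1 held TAATC, so by promoter the count was 5 of 10. Over the longer window of 300 bases (250 before to 50 after the start) 6 of 9 genes, or 6 of 10 promoters, held it against 22%, Tulp1 being the sixth. The longer form TAATCC, which overlaps it, was found in Abca4 alone (7.06% of all in 300 bases). TGCTGA was in none of the 9 (19.5% of all), and TATAAA was in Abca4 and Fscn2 (13.6% of all). TAATC was searched after TAATCC had given 1 match. A match describes letters in the window and no more, and Rom1, without a match, had its highest mean at the same age as Prph2 and Abca4.

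Tulp1 (ENSMUSG00000037446, chr17:28351515-28365182, minus strand) encodes a tubby-like protein of the inner segment that is needed to carry membrane proteins to the outer segment. Its E11 libraries were far apart, at 0.985 and 3.05 CPM, and it was at 16.12 and 10.8 CPM at E16. It stood at 61.9 and 70.8 CPM at P0, a log2 change of 5.04 from E11 (SE 0.32, adjusted p 6.17e-10). That value was 4.44 without E11 replicate 1 and 6.07 without replicate 2. Tulp1 then paused between P2 (137 and 150 CPM) and P4 (152 and 158 CPM), the step in which 7 of the other 8 genes but not Fscn2 rose.

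From P4 Tulp1 climbed to 263 and 288 CPM at P6, 541 and 555 at P10, 507 and 484 at P14, and 1024 and 987 at P21. The doubling from P14 to P21 (log2 change 1.02, SE 0.24, adjusted p 0.00405) was just over the limit. It was under 2-fold without P14 replicate 2 (0.98) or P21 replicate 1 (0.99), with library size alone (0.99) and with summed transcripts (0.82). At P28 its libraries were at 859 and 857 CPM. Per length and with all its transcripts counted, non-coding ones included, Tulp1 was the third most abundant of the 9 genes at P28, at 1376 ± 22 TPM.

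Fscn2 (ENSMUSG00000025380, chr11:120361534-120368168, plus strand) encodes a fascin, a bundler of actin filaments at the site of disc formation. It had the lowest CPM of the 9 at every stage from P0 on and was the last to reach 50% of its highest mean. Its libraries stayed between 0.0686 and 0.984 CPM up to P0, and its E11 libraries held 10 and 2 counts. The called rise from E11 to P0 (log2 change 1.93, adjusted p 0.00224) was 3.42 without E11 replicate 1 and 1.23 without replicate 2 (adjusted p 0.0452).

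After birth Fscn2 rose later than the others. It was at 3.88 and 4.38 CPM at P6, 12.5 and 15.98 at P10, 31.8 and 30.3 at P14 and 67.7 and 62.4 at P21, with no overlap between neighbouring ages in that span. From P6 to P14 it had the largest change of the 9 genes, 2.91 on the log2 scale (SE 0.25, adjusted p 1.47e-07). It was the only gene of the 9 called higher from P10 to P14 (1.12, SE 0.23, adjusted p 0.00278; 0.96 without P10 replicate 1) and was again called from P14 to P21 (1.07, SE 0.23, adjusted p 0.00211). At P28 its libraries were at 54.5 and 60.7 CPM.

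Impg1 and Impg2 encode the 2 interphotoreceptor matrix proteoglycans, the first secreted and the second anchored in the photoreceptor membrane. They rose at different ages. Impg2 (ENSMUSG00000035270, chr16:56204313-56273756, plus strand) was at 8.68 and 5.93 CPM at E14, 57.4 and 61.2 at E16 and 151 and 184 at P0. Impg1 (ENSMUSG00000032343, chr9:80313330-80465481, minus strand) was at 0.241 and 0.0309 CPM at E16 and 2.32 and 2.08 CPM at P0. The step from E14 to E16 was 3.02 for Impg2 (SE 0.40, adjusted p 3.81e-05). For Impg1 the first called rise was from E16 to P0 (3.96, SE 0.40, adjusted p 4.17e-06), which was 5.98 without E16 replicate 1 and 3.17 without replicate 2.

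At E11 the Impg2 libraries were at 4.37 and 0.480 CPM, so the size of its rise from E11 to P0 (6.09, SE 0.46, adjusted p 7.16e-09) depends on them. It was 8.43 without E11 replicate 1 and 5.26 without replicate 2. The change from E11 to E12 (-0.50, adjusted p 0.537) even changed sign, to 1.84 without E11 replicate 1 and 1.09 with summed transcripts. E11 replicate 1 also has the higher lens marker sum of its stage (2910 against 7.96 CPM). At E12 and E14 the library with the higher lens sum had the lower Impg2 level (1.29 against 2.2 CPM and 5.93 against 8.68 CPM). A part of lens tissue in the Impg2 level was not tested. The rise from E16 to P0 (1.495, adjusted p 0.0065) missed the threshold without E16 replicate 1 (adjusted p 0.0568) or 2 (0.0512).

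After birth the gap between the 2 genes narrowed. Impg2 was at 155 and 169 CPM at P2, 588 and 547 at P4 and 900 and 856 at P6, reached 1109 and 1229 at P10, and was at 675 and 762 at P28. Impg1 was at 4.57 and 7.59 CPM at P2, 32.4 and 32.7 at P4, 109 and 96.7 at P6, 356 and 345 at P10 and 476 and 460 at P14. From P0 to P6 Impg1 had the largest change of the 9 genes, 5.54 (SE 0.22, adjusted p 6.03e-12). From P14 to P28 it changed by -0.09 (adjusted p 0.721), and its P28 libraries were at 412 and 465 CPM.

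The log2 ratio of Impg2 to Impg1 in CPM was 3.61 ± 0.595 at P4 and P6 (4.12 and 3.1 by age) and 0.887 ± 0.204 at P21 and P28, again with pooled ages treated as exchangeable. This 6.60-fold shift was the larger of the 2 ratio shifts, without overlap (2-sided exact permutation p 0.0286, adjusted 0.0429), and lay between -2.91 and -2.53 on the log2 scale with any 1 library left out. Per length Impg2 was at 58.1 ± 7.3 TPM and Impg1 at 1.41 ± 0.093 TPM at P0, and Impg2 was still the higher at P21 (321 and 306 against 257 and 263 TPM). At P28 they were at 243 ± 15 and 270 ± 18 TPM, a difference about as large as that between the 2 Impg1 libraries. Impg1 was the higher within each P28 library.

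By level per length at P28 the order was Prph2 (3377 TPM), Rom1 (1865), Tulp1 (1376), Prom1 (867), Abca4 (750), Cdhr1 (522), Impg1 (270), Impg2 (243) and Fscn2 (141). The libraries of neighbours in this order did not overlap. The closest pair was Impg1 (256 and 283 TPM) and Impg2 (233 and 254 TPM), which differed by about as much as their libraries did. Non-coding transcripts are in these TPM, and short ones add more per count. In Tulp1 at P28, Tulp1-012 (533 bases) held 8.39% of the counts and Tulp1-010 (450 bases) 6.79%. The coding Tulp1-001 (2017 bases) held 40.5%. The order by coding transcripts alone was not computed.

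The 2 E12 libraries stood apart in Prph2. Its estimated counts were 1 and 1 at E11, 65 and 33 at E12, 1 and 2 at E14, and in CPM 0.0328 and 0.0343, 2.38 and 1.12, and 0.0319 and 0.0710. The 2 E12 libraries differed in the transcript: the retained-intron Prph2-002 held 80.5% of the Prph2 counts in replicate 1, and the coding Prph2-001 held 100% in replicate 2. From P0 on Prph2-002 held 5.05% to 13.9% per library. The error of assigning reads to transcripts is not in these shares. The E12 level was 51.5-fold that of E11 (exact 95% counting interval 13.9 to 431) and 34.3-fold that of E14 (11.4 to 169). Both steps passed the test (adjusted p 6.08e-06 and 7.33e-07), also without either E12 library.

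Several rod transcripts had the same shape. Pde6b, a rod phosphodiesterase subunit, had 1 and 3 counts at E11, 33 and 29 at E12 and 0 and 3 at E14. Gnat1, the rod transducin subunit, had 75 and 80, 495 and 227, and 48 and 88. Both E12 libraries lay above all 4 libraries of E11 and E14 for 6 of 8 photoreceptor markers (among them Rcvrn, Gnat1, Pde6b, Sag and, at 7 counts in each E12 library, the cone arrestin Arr3), for 1 of the 9 genes described here (Prph2), and for 9.4% of all genes tested. The excess over the mean of the neighbours was 0.0435% of the P28 level for Prph2, 0.0437% for Pde6b, 0.0803% for Rcvrn and 0.168% for Gnat1. The cone phosphodiesterase subunit Pde6c did not have this shape, with 0 and 1 counts at E11, 2 and 1 at E12 and 104 and 63 at E14. Crx, which is needed for photoreceptor gene expression, was at 11.7 and 7.36 CPM at E12 against 9.56 and 15.8 at E11.

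**Figure D5:**
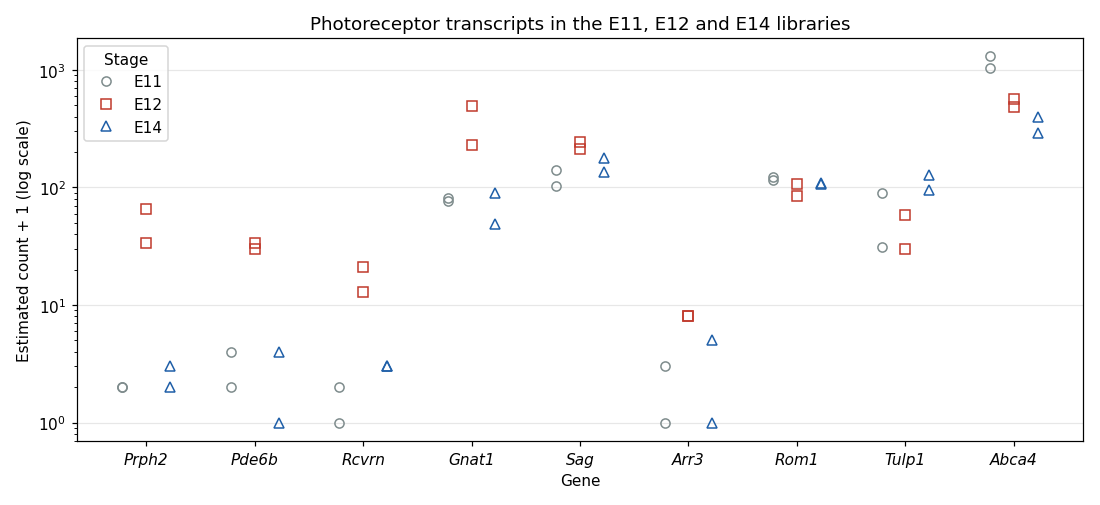
Estimated counts plus 1 (log axis) in the 2 libraries each of E11 (grey circles), E12 (red squares) and E14 (blue triangles) for Prph2, 5 photoreceptor markers and 3 other outer segment genes. For Prph2 and the 5 markers both E12 libraries are above every E11 and E14 library, and for Rom1, Tulp1 and Abca4 they are not.

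Where these transcripts came from at E12 was not tested. Without the E12 libraries Prph2 was at 1 to 2 counts per library at E11 and E14, too few for a fold, and its first rise was from E14 to E16. There its libraries held 113 counts in all against 3, which is 34.2-fold (exact 95% counting interval 11.4 to 168). All 126 results for the 9 genes that could be refitted without E12 kept their side of the threshold, and no called result changed sign.

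Other outer segment proteins rose in the same windows as the 9 genes. Of the 11 that could be tested, 10 were called higher from E11 to P0 (18.9% of all genes), 11 from P0 to P6 (8.83%), 7 from P6 to P14 (10.13%) and 1 from P14 to P28 (4.05%), with medians of 3.80, 5.38, 1.54 and 0.35 against 3.83, 2.99, 0.99 and 0.30 for the 9. Among the largest changes from P0 to P6 were those of Cnga1, the rod channel subunit (9.86), and Slc24a1, the rod sodium-calcium exchanger (5.91). Slc24a1 rose by a further 6.05 from P6 to P14 (14.5 ± 0.63 to 964 ± 44 CPM) and Rdh8, a retinol dehydrogenase, by 2.2. Atp8a2, a phospholipid flippase of the disc, was among those called from E11 to P0 and from P0 to P6 (1.82 and 2.2).

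Other matrix genes did not move as a group. Of 12, 4 rose and 3 fell from E11 to P0, 4 rose and 1 fell from P0 to P6, 3 rose and 1 fell from P6 to P14, and 3 fell from P14 to P28, where 18.9%, 8.83%, 10.13% and 4.05% of all genes were called higher and 13.6%, 7.83%, 5.52% and 4.81% lower. Rbp3, the retinoid carrier of the matrix, went from 2.59 ± 1.8 CPM at E11 to 537 ± 12 at P0 (log2 change 7.69). Vcan, versican, fell from 530 ± 180 CPM at E11 to 82.7 ± 17 at P0 (log2 change -2.68) and from 27.5 ± 11 at P14 to 3.52 ± 0.96 at P28. Hapln1, a hyaluronan link protein, had E11 libraries far apart (29.7 ± 29 CPM) when it fell to P0 (-5.40).

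Among 10 genes of actin and disc formation, 4 rose from E11 to P0 (18.9% of all genes) and 2 from P0 to P6 (8.83%), when Espn, espin, fell (-1.71; 7.83% of all genes lower). From P6 to P14 2 rose (10.13%) and from P14 to P28 none did, with 7 at an unadjusted p under 0.05 (edgeR). Of those 7, BC027072 and Pcdh15 were higher at P28 and the rest lower. BC027072, the mouse Pcare gene of the disc-forming membrane, rose in the first 3 windows, by 7.53, 3.11 and 1.41, and was at 0.05 ± 0.022 CPM at E11 and 471 ± 31 at P21. Pcdh15, a protocadherin, rose by 8.21 and 2.34. The subunits of the Arp2/3 complex in the list were not called in any window, but each had a lower mean at P28 than at E11. Arpc3 went from 76.3 CPM at E11 to 24.2 at P28. Its changes from P6 to P14 (-0.88, edgeR adjusted p 7.19e-06) and from P14 to P28 (-0.50, adjusted p 0.00296) were each less than 2-fold.

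Of 14 paralogs of the 9 genes that could be tested, 3 rose and 1 fell from E11 to P0 (18.9% of all genes higher and 13.6% lower), 2 rose from P0 to P6 (8.83% higher), none was called from P6 to P14 (edgeR, 4 at an unadjusted p under 0.05), and 2 fell from P14 to P28 (4.81% lower). Tub, a relative of Tulp1, was called in the first 2 windows (2.15 and 2.26) and was at 683 ± 2.5 CPM at P28. Tulp3 (43.3 ± 2.8 CPM at E11 and 24.7 ± 1.8 at P28) and Tulp4 (661 ± 170 and 192 ± 4.9) were called in no window. Fscn1, the broadly expressed fascin, was at 242 ± 89 CPM at E11 and 38.7 ± 14 at P28, and its fall from P14 to P28 was called (-1.19, adjusted p 0.00229). Abca1, a cholesterol transporter, rose by 1.42 and 1.89 in the first 2 windows and fell by 1.61 in the last, while Abca2, Abca3 and Abca7 were called in none.

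All 8 photoreceptor regulators in the list rose from E11 to P0 (18.9% of all genes), and 5 rose from P0 to P6 (8.83%). From P6 to P14, when Prph2, Abca4, Fscn2 and Impg1 still rose, 2 fell (5.52% of all genes lower) and none rose. They were Otx2, which specifies photoreceptors (log2 change -1.93), and Prdm1, which separates them from bipolar cells (-2.43). Nrl, the rod determinant, was listed at 0 in both E11 libraries and was at 83.7 ± 6.4 CPM at P0 and 920 ± 2.1 at P6. Nr2e3, a rod nuclear receptor, went from 98.0 ± 3.7 at P0 to 916 ± 1.5 CPM at P6 (3.22), and Crx from 346 ± 16 to 1382 ± 35 (2.0).

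Stage profiles most like each of the 9 were found by Pearson's r of log2 CPM over the 12 stage means, among 10369 genes, as a description. Prph2 was closest to Fabp12 (r = 0.988), Slc17a7 and Pde4b, and Rom1 to Cngb1 (r = 0.997), Nxnl1 and Sag. Prom1 was closest to Ccdc47 (r = 0.994), Ephx2 and Bbs9, and Cdhr1 to Acsl6 (r = 0.996), Nrxn3 and Lrp11. Abca4 was closest to Fam149a (r = 0.994), Rgs9bp and Susd3, Tulp1 to Lactbl1 (r = 0.996), Pnpla3 and Camk2d, and Fscn2 to Bcl2l2 (r = 0.997), Mical2 and Pfkfb2. Impg1 was closest to Sag (r = 0.995), Rdh8 and Rcvrn, and Impg2 to Ppef2 (r = 0.996), C1ql3 and Gjd2. Sag, rod arrestin, was in the first 3 for both Rom1 and Impg1. The 12 means share libraries and a common trend with age, so high values are common among genes that rise.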

How the data were processed

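Poly(A) RNA of 24 mouse retina libraries was analysed from estimated counts per gene and per transcript that the authors deposited. The submitters' processing notes name kallisto 0.42.4, edgeR 3.13.9 and GRCm38.p5 without roles, and the way gene values were formed from transcripts was not given in these sources. The authors' deposited log2 changes against E11 were not used as results, and only each adjusted p-value from that table is quoted. The deposited normalized CPM were not used.

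Counts were rounded, filtered with filterByExpr by stage (minimum count 10, 21858 genes kept), scaled by TMM and fitted with edgeR 4.0.16 (R 4.3.3) by quasi-likelihood with a coefficient for every stage over all 24 libraries (12 residual degrees of freedom). Changes were called at a Benjamini-Hochberg adjusted p under 0.05 over all genes and at least 2-fold. Comparisons were 4 windows, 11 steps and 3 ratios (exact permutation tests that treat libraries of pooled ages as exchangeable). Transcript use was tested with diffSpliceDGE. TPM were computed from transcript counts over full length and summed over all transcripts of a gene, non-coding ones included. On simulated data with changes of 2-fold or more put in, the gene fit recovered changes. Those of exactly 2-fold sit on the calling limit, so their estimates can fall short and go uncalled. The transcript test, simulated at a fixed dispersion, called somewhat more unchanged genes than its threshold states.

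The 9 members and all lists were chosen with earlier results of these data known. Each list's 3 largest called changes per window could be named, as could paralogs whose highest stage mean reached 5 CPM, the 3 genes most like each member (highest stage mean 20 CPM or more) and transcripts with at least 5% of a gene's counts. Transcript Prom1-201, Atp8a2 and the E12 marker genes fall outside that rule and were named after their values were seen. Prcd, in the list of outer segment proteins, was not found under that symbol, and 2 genes of the lists and markers are counted but not reported here by name. Alternatives were DESeq2 1.42.0, other scalings and filters, summed transcripts, a replicate block, limma 3.58.1 for transcripts, leaving out each library, and, chosen after seeing the data, leaving out E12. Promoters are from RefSeq (GRCm38.p6). Depth was 24567532 to 35898879 counts per library, and counting intervals cover counting error only.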

Additional observations from a re-analysis of the deposited data

How the results depend on the processing

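Of 4464 results for the 9 genes under other settings, 4419 kept their side of the threshold, 23 lost and 20 gained a call. The other 2 changed sign and were called in at least 1 of the fits. A change of sign in a result called in neither fit was not counted. Tulp1 from E11 to E12, for example, ran from -1.018 to 0.6103 with 1 library left out. In most refits without 1 library, that library came from a stage outside the comparison, where the result could change little. The cause of each change was not tested. With summed transcripts, 1 member was called lower from E11 to P0 (0 in the gene table), 2 from E12 to E14 (1), and 1 higher from P14 to P21 (3), 106 genes were called from P21 to P28 (194), and Impg2 from E11 to E12 changed sign to 1.087 (-0.4951). With library size alone, 0 members were lower from E11 to E12 (1). With no filter, 429 genes were called from P21 to P28. By limma's diffSplice, 12 transcripts were called from P6 to P28 (2 by edgeR).

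Leaving out 1 library at a time, Impg2 from E11 to E12 ran from -1.336 to 1.837. Members called lower numbered 1 to 2 from E11 to E12, 0 to 1 from E14 to E16 and 0 to 1 from E11 to P0, and members called higher 2 to 5 from P4 to P6 and 0 to 1 from P10 to P14. Genes called ranged from 716 to 3021 (E11 to E12; lowest without E11 replicate 2, highest without E11 replicate 1), 1101 to 1845 (E16 to P0), 544 to 1000 (P0 to P2), 544 to 1092 (P10 to P14), 1256 to 2087 (P14 to P28) and 71 to 246 (P21 to P28). The log2 shift of Rom1 to Prph2 ran from -0.9125 to -0.8151 and that of Impg2 to Impg1 from -2.909 to -2.532, each with adjusted exact permutation p 0.0857, since 3 against 4 libraries cannot pass. A lone library left in a stage was assumed to vary like the other stages.

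Replicate numbers were not treated as pairs: deviations of same-numbered libraries had r over 0.1 in 16 of 66 pairs of stages (median 0.0224, range -0.433 to 0.504). Whether some libraries were prepared together was not tested. With the replicate number as a block, 16813 genes (16892 without) and 9 members differed between stages, and no count of members called in a window or step changed. Depth limits Prph2, Cdhr1, Fscn2 and Impg1 at E11, where libraries held 1 to 10 counts of each.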
